A study of Mus musculus with 6 samples.

Results

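The NADPH oxidase subunits examined here were 9 genes chosen by symbol, Nox1, Nox4, Cybb, Cyba, Ncf1, Ncf4, Noxa1, Rac1 and Poldip2. Of these, 6 had a row in the expression table of 19730 rows. Cyba, Ncf4 and Noxa1 had no row in the table used here, under these symbols or through their annotated transcripts, and were not analysed. RNA came from primary mouse mesangial cells, the pericyte-like support cells of the kidney glomerulus. All cultures were grown at high glucose (25.5 mM) with 20% serum and were used at passages 3 to 6. There were 3 Control libraries and 3 from cells given TGF-β1, the main profibrotic cytokine of the kidney, at 10 ng/ml for 72 h. High glucose and serum were thus shared by both groups. The sources used here do not say whether the 3 libraries of a group came from separate cultures or animals, so the p-values measure the spread between these libraries, which may be technical.

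NADPH oxidases are membrane enzymes that pass electrons from NADPH to oxygen and release superoxide or hydrogen peroxide. Each has a catalytic NOX or DUOX chain. NOX1 and CYBB (NOX2) are silent until cytosolic organizers (such as NCF1 and NOXO1), activators (such as NOXA1) and a Rac GTPase join them on the membrane with CYBA (p22phox). NOX4 also needs CYBA but makes hydrogen peroxide without the cytosolic proteins, so that its amount largely sets its output, and POLDIP2 is a CYBA-binding protein that increases its activity. In the kidney NOX4 is the best known member of the family, and it is a known target of TGF-β1 in fibroblasts and mesangial cells.

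The promoters of the catalytic subunit that rose (Nox4), of another catalytic subunit that did not pass the test (Nox1) and of the organizer that fell (Noxo1) are printed for a view of the sequence at their starts. Each runs 5′ to 3′ from 250 bases before to 50 bases after the RefSeq start of the gene, on the gene's own strand. The sequences were taken from RefSeq (GRCm38.p6) and placed on mm9 by an exact match. The Nox4 and Nox1 windows lie inside the gene spans given below, so these RefSeq starts are not the 5′ ends of those spans. Capitals mark the SMAD box CAGAC and the GC box GGGCGG on either strand, and positions count from 1 at the 5′ end. Promoters of 7 of the 9 subunits were matched by symbol.
Nox4, chr7:94394909-94395208, plus strand: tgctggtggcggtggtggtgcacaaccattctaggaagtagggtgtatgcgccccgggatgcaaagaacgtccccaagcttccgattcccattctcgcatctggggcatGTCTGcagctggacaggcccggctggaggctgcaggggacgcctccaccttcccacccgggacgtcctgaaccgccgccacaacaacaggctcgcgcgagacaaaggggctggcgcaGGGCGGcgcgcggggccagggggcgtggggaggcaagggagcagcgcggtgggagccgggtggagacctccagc
Nox1, chrX:130646344-130646643, minus strand: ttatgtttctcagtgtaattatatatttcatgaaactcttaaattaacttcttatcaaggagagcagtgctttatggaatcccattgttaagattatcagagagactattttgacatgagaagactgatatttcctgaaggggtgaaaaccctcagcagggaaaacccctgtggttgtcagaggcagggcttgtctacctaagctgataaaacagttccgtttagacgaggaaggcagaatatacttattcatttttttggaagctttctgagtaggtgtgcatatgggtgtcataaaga
Noxo1, chr17:24832929-24833228, plus strand: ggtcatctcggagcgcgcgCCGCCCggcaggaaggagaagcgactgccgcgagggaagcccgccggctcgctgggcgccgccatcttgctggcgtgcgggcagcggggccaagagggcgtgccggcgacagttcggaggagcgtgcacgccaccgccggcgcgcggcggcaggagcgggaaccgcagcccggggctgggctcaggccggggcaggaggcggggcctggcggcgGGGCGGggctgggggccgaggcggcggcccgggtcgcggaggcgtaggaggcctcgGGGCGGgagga

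The Nox4 window held 1 SMAD box, at position 110 and on the opposite strand (GTCTG), and 1 GC box at position 227. The Nox1 window held neither of them. That of Noxo1 held GC boxes at positions 20, 234 and 290 and no SMAD box. Among 32851 promoters of the same length, 49.6% held a SMAD box and 35.7% a GC box. The AP-1 letters TGANTCA, present in 7.81% of all promoters, and the TATA letters TATAAA, present in 13.6%, were in none of the 3 windows. GC content was 68.3% in Nox4, 38.0% in Nox1 and 80.3% in Noxo1, beside a median of 52.7%. There were 24, 2 and 46 CpG dinucleotides in that order, beside a median of 7. The Nox4 and Noxo1 windows were thus rich in CpG and that of Nox1 was poor in it, and these matches are descriptions of letters only.

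Levels are given in FPKM, the fragments of a row per kilobase of transcript and per M (mega) mapped fragments, which is a level per length and can be compared between genes. Changes are differences of log2(FPKM + 1), TGF-β1 minus Control, with limma's P-value adjusted by the Benjamini-Hochberg method over all rows tested. This scale understates the change of low genes. A change was called at an adjusted p under 0.05. Rows with a mean of at least 1 FPKM were tested together, and values for rows below that come from a fit without the filter. From the steps in the low FPKM values, the libraries held about 10.1 to 11.1 M mapped fragments, so that 1 FPKM on a transcript of 2 kb stood for about 20.2 to 22.1 fragments.

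The treatment could be read from known TGF-β1 targets, since Ctgf rose by 4.63 and Smad7 by 1.66 on the log2 scale (limma, adjusted p at most 1.62e-04). The mesangial label could be checked in part. Pdgfrb was at 32.0 to 41.1 FPKM in Control and 28.4 to 29.9 FPKM with TGF-β1. Acta2 was at 912 to 1091 and 3587 to 4268 FPKM in that order, and both changes were called (limma adjusted p 0.0396 and 8.64e-05). Tagln and Vim were at 451 FPKM or more in every library. Gata3 was at 0.756 to 2.42 FPKM in Control, and Cspg4 went from at most 0.115 FPKM there to 0.918 to 1.37 FPKM with TGF-β1. Des, Itga8, Thy1, Pdgfra and Myh11 stayed under 1 FPKM in all 6 libraries. Replicate 2 of the Control and of the TGF-β1 group deviated together from their group means (correlation across rows 0.232, against at most 0.117 for any other pair), so values without this pair are given for the main results.

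TGF-β1 raised 2 of the 3 subunits that passed the filter, Nox4 and Rac1, and neither direction nor call depended on a single library. Poldip2 did not pass the test, and Nox1, Ncf1 and Cybb lay under the filter and were not called. Among all 11898 rows tested, 48.1% were called, 2911 up and 2810 down, and the groups did not overlap in 59.4%. A count of 2 subunits in 3 has to be read against that share. The median change of all rows tested was -0.017 and that of the 3 subunits was 0.59. In bulk RNA, a change in the number of cells that express a gene and a change in RNA per cell cannot be told apart.

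**Figure D1:**
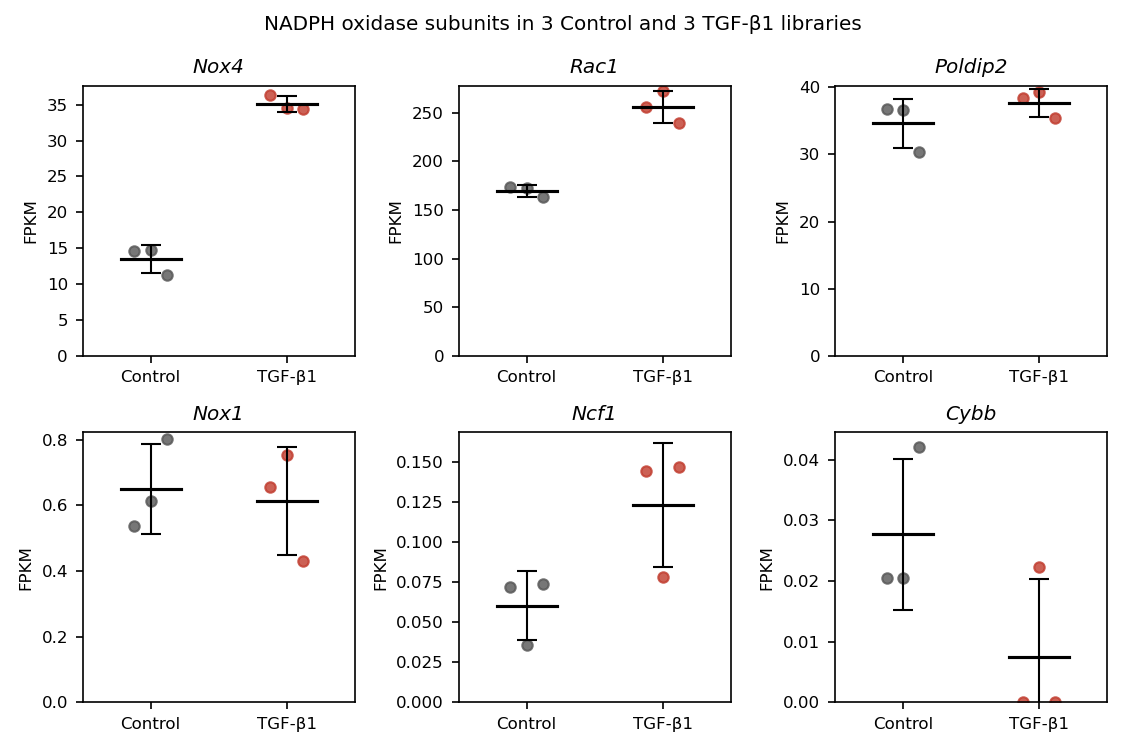
FPKM (linear axis from 0, own scale in each panel) of the 6 subunits with a row, one point per library, with the group mean as a wide bar and the SD as whiskers (n = 3 per group). Points of Control and TGF-β1 lie apart for Nox4, Rac1 and, at 1 to 4 fragments per library, Ncf1, and overlap for Poldip2, Nox1 and Cybb.

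Nox4 encodes the oxidase chain that is active without cytosolic partners (chromosome 7, 94394606 to 94547220, plus strand). Its level in Control replicates 1 to 3 was 14.6, 14.8 and 11.3 FPKM. In TGF-β1 replicates 1 to 3 it was 36.3, 34.6 and 34.4 FPKM. The lowest TGF-β1 library was far above the highest Control library, and the TGF-β1 libraries lay closer together than the Control libraries. The mean rose from 13.6 ± 1.95 to 35.1 ± 1.09 FPKM (SD, n = 3), which is 2.59-fold. On the log2 scale the change was 1.32 with an SE of 0.115 and a 95% interval of 1.04 to 1.60 (limma, Benjamini-Hochberg adjusted p 2.71e-04). In replicates 1 and 3 alone it was 1.39 (limma adjusted p 0.00724). Among all rows, 72.0% lay below the Nox4 level in Control and 85.9% did so in TGF-β1-treated cells. The row names a transcript of 592 nt among the 10 annotated for the gene, and whether the value belongs to that transcript or to the gene is not stated.

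Nox1, an oxidase chain that requires NOXO1 and NOXA1 (chromosome X, 130620960 to 130756495, minus strand), was low, above 35.6% of all rows in Control and 38.0% with TGF-β1. It was at 0.535, 0.613 and 0.803 FPKM in Control and at 0.656, 0.752 and 0.430 FPKM in TGF-β1-treated cells. The highest and the lowest library were both replicate 3, one of each group, and the groups overlapped. These values stood for about 14, 16 and 20 fragments in Control and 17, 18 and 11 with TGF-β1. The mean was 0.650 ± 0.138 in Control and 0.613 ± 0.165 FPKM with TGF-β1, and the log2 difference of -0.035 had an interval of -0.31 to 0.24 (limma without the filter, adjusted p 0.835). Its sign was opposite without either replicate 3 library (0.030 without that of Control and 0.049 without that of TGF-β1). The annotated span of Nox1 overlaps Cstf2 and Arl13a on the opposite strand and Xkrx on its own.

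Cybb, the catalytic chain of the phagocyte oxidase (chromosome X, 9012378 to 9064897, minus strand), was listed at 0.0205, 0.0206 and 0.0421 FPKM in Control. With TGF-β1 it was listed at 0, 0.0224 and 0 FPKM. On its transcript of 4752 nt this was 1, 1 and 2 fragments in Control and 0, 1 and 0 with TGF-β1, so a difference was not detectable at this depth (limma without the filter, adjusted p 0.557). The dual oxidases Duox1 and Duox2, catalytic chains typical of thyroid and airway epithelium, were also at the limit. Duox1 had 6, 1 and 2 fragments in Control and 1, 10 and 3 with TGF-β1. Duox2 had 1, 1 and 0 fragments in the Control libraries and 5, 3 and 7 in the TGF-β1 libraries. The Duox2 groups did not overlap, and its mean FPKM was 7.55-fold higher with TGF-β1. Neither gene passed the test (limma without the filter, adjusted p 0.679 for Duox1 and 0.112 for Duox2). Nox3 had no row in the table used here.

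Of the summed FPKM of the 5 catalytic chains with a row, Nox4 made up 95.5%, 95.7% and 92.8% in the Control libraries. With TGF-β1 it made up 98.0%, 97.1% and 98.3%. Nox4 thus made up nearly all of this sum in every library. The share takes the FPKM of the Nox4 row as it stands, although that row names a transcript of 592 nt among 10. Nox1 went from 4.69% ± 1.66 to 1.70% ± 0.446 of the sum, which itself went from 14.3 ± 1.83 to 35.9 ± 1.09 FPKM (SD, n = 3). The smaller share of Nox1 came with a larger sum at a similar Nox1 level.

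**Figure D2:**
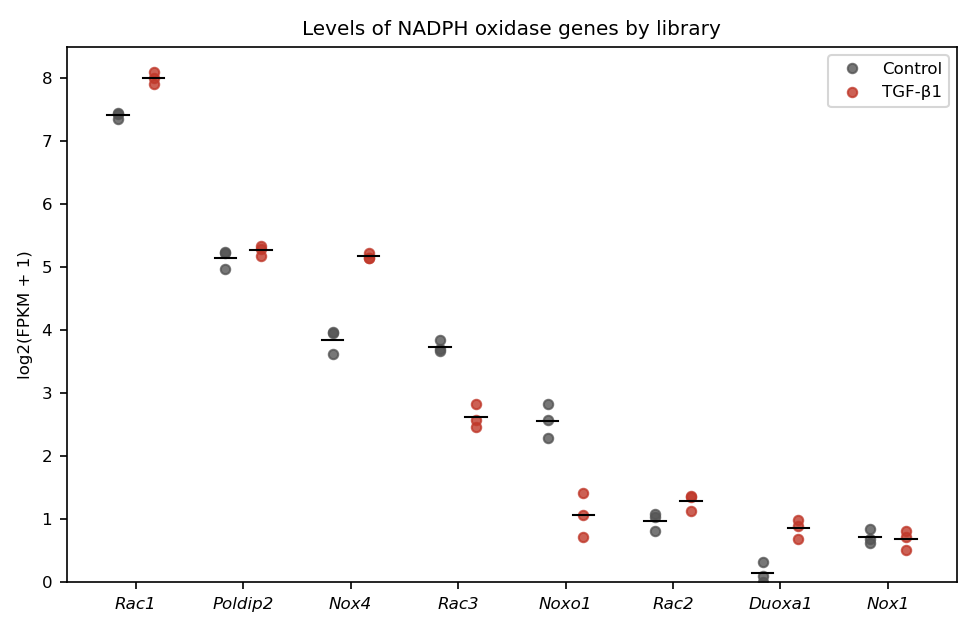
Levels of 8 oxidase genes as log2(FPKM + 1), one point per library and a bar at the group mean (n = 3 per group). Nox4 sits with Rac3 in Control and with Poldip2 in TGF-β1-treated cells, Rac1 is the highest gene in both groups, and Rac3 and Noxo1 are lower with TGF-β1.

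Ncf1 encodes p47phox, the organizer of the phagocyte oxidase (chromosome 5, 134695923 to 134705495, minus strand). The Control libraries had 0.0717, 0.0359 and 0.0736 FPKM, and the TGF-β1 libraries had 0.145, 0.0783 and 0.147 FPKM. The groups did not overlap, yet on a coding transcript of 2721 nt these values were 2, 1 and 2 fragments against 4, 2 and 4. The change of 0.083 (95% interval -0.026 to 0.19) did not pass the test (limma without the filter, adjusted p 0.225). Ncf1 overlaps Gtf2ird2 on the opposite strand, and it is not stated whether the values used the strand of a read. The row names a shorter transcript, of 1497 nt, on which the value of Control replicate 2 would be about 0.515 of a fragment, whereas on the longer transcript all 6 values lay within 0.1 of a whole fragment.

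Noxo1, which was no member of the list, encodes the organizer that keeps NOX1 active (chromosome 17, 24833179 to 24837474, plus strand). Noxo1 was at 3.89, 6.11 and 4.97 FPKM in Control and at 0.649, 1.69 and 1.11 FPKM with TGF-β1. Every TGF-β1 library was below every Control library, and the mean went from 4.99 ± 1.11 to 1.15 ± 0.521 FPKM, 4.35-fold lower (log2 change -1.49, SE 0.224, limma adjusted p 0.00244). Noxo1 overlaps Tbl3 on the opposite strand, which was at 18.9 ± 2.43 FPKM in Control and 17.3 ± 1.34 FPKM with TGF-β1 (log2 change -0.12, limma adjusted p 0.419). In replicates 1 and 3 alone the change of Noxo1 was -1.53 (limma adjusted p 0.010). Duoxa1, the maturation factor of DUOX1, had 0.254, 0 and 0.0710 FPKM without TGF-β1 and 0.618, 0.855 and 0.989 FPKM with it. It lay under the filter and was called in the fit without it (log2 change 0.72, adjusted p 0.00654 by limma), where 30.5% of all rows were called. That call was lost in replicates 1 and 3 alone (limma adjusted p 0.0989), and Duoxa1 overlaps Duoxa2, which had no row here, on the opposite strand.

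Rac1, the ubiquitous Rac GTPase that binds oxidase activators such as NOXA1, is encoded on chromosome 5 (144266346 to 144288904, minus strand). It was at 173.6, 172 and 163 FPKM in Control and at 256, 272 and 239 FPKM with TGF-β1. All TGF-β1 libraries lay above all Control libraries. The mean rose from 169.6 ± 5.79 to 256 ± 16.4 FPKM (SD, n = 3), 1.51-fold, with a log2 change of 0.59, an SE of 0.0822 and a 95% interval of 0.39 to 0.79 (limma adjusted p 0.00182). Without the replicate 2 libraries the change was 0.55 (limma adjusted p 0.0159). Among the oxidase genes with a row here, Rac1 was the most abundant in both groups.

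Rac3, a Rac GTPase best known from neurons (chromosome 11, 120582784 to 120585283, plus strand), went the other way. It was at 13.4, 12.1 and 11.7 FPKM in Control and at 4.55, 4.98 and 6.14 FPKM with TGF-β1. The groups did not overlap, the level was 2.37-fold lower with TGF-β1, and the log2 change was -1.11 with an SE of 0.120 (limma adjusted p 6.31e-04). In replicates 1 and 3 alone it was -1.10 (limma adjusted p 0.0162). Rac2, the leukocyte form, was at 1.05, 1.12 and 0.752 FPKM in Control and at 1.57, 1.57 and 1.21 FPKM with TGF-β1. Its groups did not overlap either, but the change of 0.31 did not pass the test (95% interval -0.027 to 0.65, limma adjusted p 0.113). As a share of the summed Rac FPKM, Rac1 went from 92.7% ± 0.336 to 97.4% ± 0.365 and Rac3 made up 6.77% ± 0.322 in Control (SD, n = 3) and 1.74% to 2.49% with TGF-β1.

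Poldip2, whose protein binds CYBA and increases NOX4 activity (chromosome 11, 78325695 to 78336238, plus strand), was at 36.8, 36.6 and 30.4 FPKM in Control. With TGF-β1 it was at 38.3, 39.3 and 35.3 FPKM. The lowest TGF-β1 library lay below the highest Control libraries, so the groups overlapped. The mean was 34.6 ± 3.64 FPKM in Control and 37.6 ± 2.06 FPKM with TGF-β1 (log2 change 0.12, limma adjusted p 0.358). The 95% interval was -0.12 to 0.37, and its upper end lay below the estimates for Nox4 and Rac1.

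The unequal changes of these genes were also read as ratios of FPKM within each library, which do not depend on scaling between libraries. Nox4 was 0.396, 0.403 and 0.372 of Poldip2 in Control and 0.949, 0.880 and 0.973 of it with TGF-β1. Nox4 was 0.0840, 0.0859 and 0.0694 of Rac1 in Control and 0.142, 0.127 and 0.144 of it with TGF-β1. Both ratios were higher in every TGF-β1 library than in any Control library, so Nox4 increased relative to its partner and to Rac1. Rac1 was 13.0, 14.3 and 13.9 times Rac3 in Control and 56.2, 54.6 and 39.0 times Rac3 with TGF-β1. Each of the 3 ratios had a two-sided exact permutation p of 0.1, the smallest that 3 against 3 libraries can give, and the Benjamini-Hochberg adjusted value over the 3 was also 0.1. The ratios were chosen after the values were seen.

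Among the oxidase genes with a row, Rac1 came first in the order of levels in Control and Poldip2 next. Each was separated from the gene below it in all libraries. Nox4 and Rac3 followed with overlapping ranges, then Noxo1, and below it Rac2 and Nox1, whose ranges overlapped. With TGF-β1 Poldip2 and Nox4 overlapped behind Rac1. Rac3 was next, and Rac2, Noxo1, Duoxa1 and Nox1 formed a run in which each overlapped its neighbor. Nox4 kept the place after Poldip2 in both groups, with a range that overlapped that of Rac3 in Control and that of Poldip2 with TGF-β1.

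**Figure D3:**
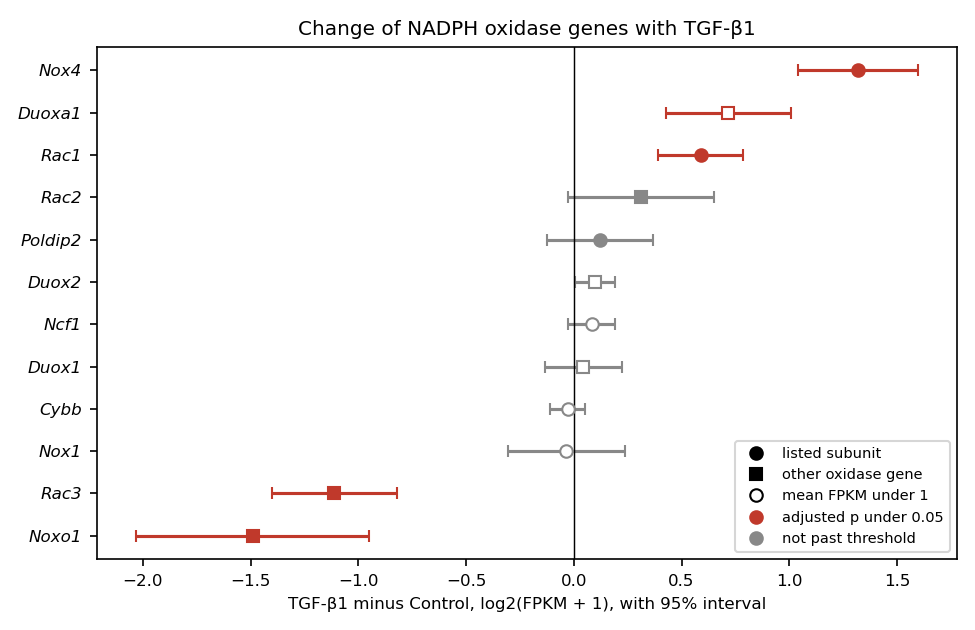
Change of 12 oxidase genes with TGF-β1 on the log2(FPKM + 1) scale, with 95% intervals from limma (3 against 3 libraries). Circles are the listed subunits, squares other oxidase genes, open symbols genes under the filter, and red marks an adjusted p under 0.05. Nox4 (1.32), Duoxa1 (0.72) and Rac1 (0.59) lie to the right, and Rac3 (-1.11) and Noxo1 (-1.49) to the left.

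The complex was next set beside 40 genes for partners and regulators of the oxidases, mainly Rac exchange factors, Rac inhibitors, kinases and adaptors. Of these, 38 had a row and 33 passed the filter. In this list 10 rose, 6 fell and 17 did not pass the test, so 48.5% were called, beside 48.1% of all rows, and the median change was 0.21. The count was 10 in replicates 1 and 3 alone and 9 without TGF-β1 replicate 1. The 2 called genes whose log2(FPKM + 1) moved by 1 or more both encode GDP dissociation inhibitors of the GTPase family that includes Rac. Arhgdib, the form known from blood cells, was at 11.3, 14.0 and 10.2 FPKM in Control and at 0.671, 0.626 and 0.328 FPKM with TGF-β1. It was 21.8-fold lower with TGF-β1 (log2 change -3.05, limma adjusted p 4.00e-05). Arhgdig was at 1.08, 0.325 and 1.89 FPKM in Control and at 4.66, 3.92 and 4.71 FPKM with TGF-β1, 4.03-fold higher (log2 change 1.44, limma adjusted p 0.00704). These inhibitors moved in opposite directions with no overlap of groups in either. The third of the family, Arhgdia, the ubiquitous form, did not pass the test (log2 change 0.26, limma adjusted p 0.149), but did so without TGF-β1 replicate 2 (0.39, limma adjusted p 0.0172). In mean FPKM, Hvcn1, a proton channel gene, was also 2.92-fold lower (log2 change -0.79, limma adjusted p 0.0189), a call lost without Control replicate 2 or TGF-β1 replicate 1 (limma adjusted p 0.0509 and 0.0512). Of the 5 partner genes under the filter, 2 were called in the fit without it, in opposite directions, beside 30.5% of all rows. Prex2 was 6.21-fold lower with TGF-β1 and Vav3 3.56-fold higher (limma without the filter, adjusted p 0.00167 and 0.0117).

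Among the genes with smaller changes, 7 more are given as examples. These and Hvcn1, Prex2 and Vav3 were chosen after their values were seen. Src, the kinase that phosphorylates oxidase adaptors, went from 16.9 ± 1.36 FPKM up to 29.8 ± 0.309 FPKM (a log2 rise of 0.79, limma adjusted p 5.62e-04). Sh3pxd2a encodes TKS5, an SRC substrate related to the organizers, and it rose from 13.6 ± 1.10 to 20.4 ± 0.620 FPKM (0.55, limma adjusted p 0.00264). Trio, an exchange factor that loads Rac with GTP, rose by 0.99 (2.22-fold in mean FPKM), and Pak1, a kinase that Rac activates, rose by 0.88 (limma adjusted p 3.60e-04 and 3.40e-04). P4hb, protein disulfide isomerase, rose by 0.62 (limma adjusted p 0.0120). Arf6 and the Rac GTPase-activating gene Srgap1 fell by 0.45 and 0.47 on the log2 scale (limma adjusted p 0.0118 and 0.00898). The chaperone gene of the CYBB and CYBA pair, Cybc1, is listed under its older symbol BC017643, and its change of 0.30 did not pass the test (limma adjusted p 0.0922), but did so without Control replicate 2 (0.40, limma adjusted p 0.0447).

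**Figure D4:**
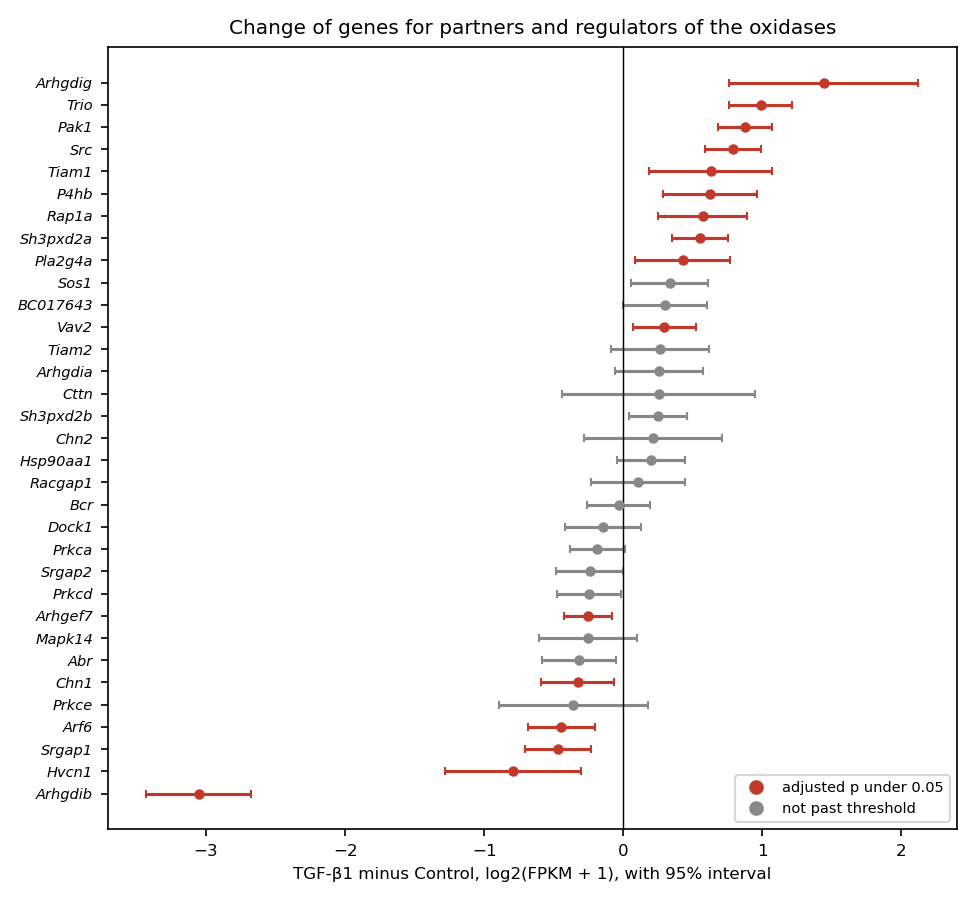
Change of the 33 tested partner and regulator genes with TGF-β1 on the log2(FPKM + 1) scale, with 95% intervals from limma, red where the adjusted p was under 0.05. Called genes lie on both sides (10 right and 6 left), and Arhgdib (-3.05) and Arhgdig (1.44) are the farthest out on each side.

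Since Cybb, Ncf1 and Rac2 are typical of phagocytes, leukocyte markers were read in the same libraries. Of 28 markers, 17 had a row and 12 of these stayed under 1 FPKM in all libraries. Ptprc, the pan-leukocyte gene, was at 0 in every Control library and in TGF-β1 replicate 1, and at 0.0448 and 0.0419 FPKM in the others. The summed level of the list was 88.3 to 119.6 FPKM in Control and 11.7 to 18.9 FPKM with TGF-β1, and most of it in Control was Cd14 (78.8 to 104 FPKM). Cd14 was 12.2-fold lower with TGF-β1 and Csf1r 15.2-fold lower (limma adjusted p 1.72e-05 and 8.56e-05). Cd68 and Fcer1g also passed the filter but were not called (limma adjusted p 0.393 and 0.791). Cd68 was at 2.02 to 3.67 FPKM in Control and 1.78 to 2.68 FPKM with TGF-β1. Fcer1g was at 0.391 to 4.67 and 1.53 to 4.60 FPKM in that order. Without Cd14 and Csf1r the sums were 4.03 to 8.44 FPKM in Control and 4.44 to 10.4 FPKM with TGF-β1. Itgb2 went from 0.245 to 0.301 FPKM in Control to 0.812 to 1.74 FPKM with TGF-β1 (limma without the filter, adjusted p 0.0125), a call lost without any 1 of the Control libraries or without TGF-β1 replicate 3 (limma adjusted p 0.0510 to 0.0578). The summed level of 12 epithelial markers, 9 with a row, was 44.7 to 49.5 FPKM in Control and 3.71 to 4.01 FPKM with TGF-β1, and it was mostly Cldn2 and Aqp1 in Control (means 32.5 and 10.4 FPKM). Of the 7 genes of this list under the filter, 4 were called in the fit without it, in both directions, beside 30.5% of all rows. Krt18 and Krt19 rose, 5.63-fold and 6.82-fold (limma without the filter, adjusted p 0.00143 and 0.00563). Krt7 and Lrp2 fell, 11.8-fold and 6.23-fold (limma without the filter, adjusted p 6.06e-04 and 0.00369). All 4 podocyte markers tested, of 6 listed, were called and fell, beside 48.1% of all rows tested called in either direction. Their list summed to 27.8 to 32.2 FPKM in Control and 15.0 to 15.6 FPKM with TGF-β1. The part of other cell types in these results was not tested.

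The rows whose profile over the 6 libraries was most like that of Nox4 were Nudt18, Hsd17b12, Lars, Nme2 and Fam114a1. Likeness was the root mean square difference of centered log2(FPKM + 1) values, and it was 0.0304 for Nudt18, 0.0457 for Hsd17b12, 0.0459 for Lars, 0.0595 for Nme2 and 0.0607 for Fam114a1. Nudt18 was at 4.75 to 6.08 FPKM in Control and at 14.7 to 16.3 FPKM with TGF-β1. Like Nox4, all 5 had their lowest level in Control replicate 3. They were picked by likeness over these same 6 libraries, so this shared low point is no separate result.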

How the data were processed

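Total RNA from cultured mesangial cells was sequenced in 3 Control and 3 TGF-β1 libraries. The authors aligned reads to build mm9 of the mouse genome with TopHat (TopHat2 2.0.11 in the submitters' processing notes) and estimated expression with Cufflinks. The authors deposited 1 FPKM value per row and library, and any further scaling is not stated. Groups and replicate numbers follow the labels.

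Each row was tested as log2(FPKM + 1) with limma 3.58.1 in R 4.3.3 (lmFit and eBayes with a mean-variance trend, two-sided, Benjamini-Hochberg adjustment), on rows with a mean of at least 1 FPKM over the 6 libraries. Members under that filter were read from the same fit without it. The authors used a count model, which FPKM values do not allow. The fit was run on simulated data with independent errors and far fewer changed rows than were called here. That run checks the code and does not bear on the calls. Mapped fragments were estimated from the steps in low FPKM values, assuming fragments of 200 nt. Of the values used, 99.2% to 99.9% lay within 0.05 of a whole number of fragments. Precision is limited by this depth and by 3 libraries per group. Coordinates are 1-based positions of GENCODE genes on mm9.

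The members, lists and tests were chosen with earlier results of these data known. All members were named, with other oxidase genes that had a row, those partners called with an absolute log2 change of at least 1, the 5 rows most like Nox4, and Ctgf and Smad7. Some genes that the rule names are not reported here. The planned ratio of Nox4 to Cyba could not be computed because Cyba had no row here. Correlations of the deviations of same-numbered libraries were 0.0921, 0.232 and 0.0853, against -0.194 to 0.117 for differently numbered ones. These values do not settle whether the numbers are pairs. The main fit did not treat them as pairs, and a replicate block was among the alternatives. Alternatives were another pseudocount, filter, scaling or threshold, no trend, a replicate block, a batch term for replicate 2, and leaving out libraries.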

Additional observations from a re-analysis of the deposited data

How the results depend on the processing

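Under 18 alternatives, 569 of 591 recomputed changes of 34 single genes kept their direction and their side of the threshold. Nox4 (log2 change 1.20 to 1.39, limma adjusted p 2.49e-04 to 0.00724) and Rac1 (0.53 to 0.63, limma adjusted p 0.00136 to 0.0159) were called under all 18, Poldip2 under none (0.034 to 0.17), and the count of called subunits was 2 in each. Nox1 turned to 0.030 without Control replicate 3 and to 0.049 without TGF-β1 replicate 3, in a range of -0.098 to 0.049 when 1 library was left out. Duox1 turned to -0.048 in replicates 1 and 3 alone and to -0.024 without TGF-β1 replicate 2 (-0.024 to 0.092 when 1 library was left out), at 1 to 10 fragments per library. The count of called partners, 16, was 7 at an adjusted p under 0.01, 10 in replicates 1 and 3 alone and 9 to 15 when 1 library was left out, the lowest without TGF-β1 replicate 1. The count over all rows, 5721, was 3672 at an adjusted p under 0.01, by construction of the threshold, and 4419 to 5446 when 1 library was left out. With the replicate block 5391 rows, 2 subunits and 13 partners were called, and BC017643 passed (limma adjusted p 0.0460). BC017643 also passed with replicate 2 as a batch term (limma adjusted p 0.0245) and without Control replicate 2 (limma adjusted p 0.0447). The causes were not tested. At about 20.2 to 22.1 fragments per FPKM in 2 kb, Cybb, Ncf1, Duox1 and Duox2 rested on few fragments. None of these genes was called under any alternative, and Duox2 came closest (limma without the filter, adjusted p 0.0559 to 0.231).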
